A study of Mus musculus with 9 samples.

Results

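Hoxb5, Trim47 and Ltb are 3 of the 2402 genes in a table of messenger RNA levels from sorted mouse bone marrow cells. They were selected on their measured values as genes of haematopoietic stem cells (HSC) whose levels in libraries 8 and 9 could be set between those of the libraries rich in Ly6a and those of the remaining libraries. Since the values chose the genes, their levels are given as a description, with no test. All 3 passed the filter on low values, which asked for 10 normalized counts or more in 2 or more libraries and which 2341 genes passed.

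The study profiled male mice, labelled C57BL/6, bred from a Flt3-cre line and the mTmG reporter line, a reporter that turns from red Tomato (Tom) to green GFP for good once Cre has acted in a cell or its forebears. Tom+ HSC of old mice (2 samples) were sorted as Lin-, cKit+, CD150+ and Flk2- cells that carried Sca1. Tom+ and GFP+ megakaryocyte progenitors (MkP) of old mice (2 samples each) and GFP+ MkP of young mice (3 samples) were sorted as cells positive for cKit, CD150 and CD41 and negative for lineage markers and Sca1. Old mice were 18 to 20 months old and young mice 3 months, and all 4 groups carried Cre and the reporter. Whether samples came from separate animals, or were pooled, is not stated.

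The table has 9 rows and none names a sample, so no library below has a known cell type, age or reporter colour, and no mean over a group is given. Libraries are numbered by row, as a name only. Ly6a, which encodes Sca1, was under 1000 normalized counts in 7 libraries, at most 187 in library 9 and 94.2 in library 2, against 4256 and 5772 in libraries 3 and 4. This split comes from a measured gene, so the sets below are sets of libraries and not groups of the study. Recovered reads on the genes of the table were 2749320 and 4373460 in libraries 8 and 9, 1790670 and 2050047 in libraries 3 and 4, and 1868577 to 3854998 in libraries 1, 2, 5, 6 and 7. One read was worth 0.724 to 1.96 normalized counts. Values are not divided by gene length, so levels are compared only within a gene.

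HSC sustain all blood lineages and are largely quiescent, and MkP are the committed cells from which megakaryocytes arise. Hoxb5 encodes a homeobox transcription factor of the Hoxb cluster, known in mouse as a marker of long-term HSC. Trim47 encodes a member of the tripartite motif family, whose RING proteins transfer ubiquitin to other proteins. Ltb encodes lymphotoxin beta, a membrane ligand of the tumour necrosis factor (TNF) superfamily that joins lymphotoxin alpha, binds the lymphotoxin beta receptor and signals through non-canonical NF-kB.

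In mm10 with GENCODE M21, the protein-coding gene Hoxb5 lies on the plus strand of chromosome 11 from 96303336 to 96306121. The antisense gene Hoxb5os (96291024 to 96306910, minus strand) covers all of it, and since strand use in counting is not given in the sources used here, reads of the 2 cannot be told apart. Trim47, protein-coding, lies on the minus strand of chromosome 11 from 116105752 to 116127210 and overlaps Trim65 (116121846 to 116131128) on the same strand. Ltb, protein-coding, lies on the plus strand of chromosome 17 from 35194439 to 35196320, beside Tnf and Lta, and holds the microRNA gene Mir6973a. Hoxb5os, Trim65, Tnf, Lta and Mir6973a have no column in the table. The 250 bases before the RefSeq start (GRCm38.p6) were at hand for 2 of the 3 genes, and they are shown so that the letters before these genes can be read beside their levels. They are chr11:116110236-116110485 on the minus strand for Trim47 and chr17:35194257-35194506 on the plus strand for Ltb, each written 5′ to 3′ along its gene. The RefSeq starts used here differ from the GENCODE M21 limits given above. The Trim47 stretch lies inside the GENCODE gene, and the Ltb stretch runs past the GENCODE start at 35194439. Capitals mark matches to GGGCGG on either strand in Trim47, and matches to AGGAAG and to the NF-kB motif in Ltb.
Trim47: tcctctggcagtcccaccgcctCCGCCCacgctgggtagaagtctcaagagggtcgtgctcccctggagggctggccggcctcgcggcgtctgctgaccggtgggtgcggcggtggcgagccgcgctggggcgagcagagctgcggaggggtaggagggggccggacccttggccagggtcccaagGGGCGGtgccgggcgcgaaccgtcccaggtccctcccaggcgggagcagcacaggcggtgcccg
Ltb: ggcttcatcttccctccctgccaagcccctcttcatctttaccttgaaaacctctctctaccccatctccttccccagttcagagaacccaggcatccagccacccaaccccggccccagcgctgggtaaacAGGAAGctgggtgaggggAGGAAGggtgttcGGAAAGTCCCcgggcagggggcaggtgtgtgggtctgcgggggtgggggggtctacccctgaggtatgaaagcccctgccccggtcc
The Trim47 stretch was 75.2% G and C and the Ltb stretch 63.2%, beside a median of 52.4% over all 32851 promoters of the same length. Trim47 held GGGCGG (SP/KLF factors) at 228 to 223 bases before the start on the minus strand relative to the gene and at 64 to 59 on the plus strand. GGGCGG occurs in 32.7% of all promoters. Ltb held AGGAAG (ETS factors, searched together with CCGGAA) at 118 to 113 and 100 to 95 bases before the start, and one of these letter strings occurs in 38.2% of promoters. It also held the NF-kB motif (GGGA, then any 2 bases, T, any base and CC) at 87 to 78 on the minus strand, which 3.33% of promoters hold, and the E-box CANNTG at 66 to 61, which 66.2% hold. No GATA motif (AGATAA or TGATAA, in 16.6% of promoters) and no RUNX motif (TGTGGT, in 14.05%) was in either stretch. Both strands were searched, no match overlapped another, and a match describes letters, not a bound site.

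Hoxb5 had 195 and 112 normalized counts in libraries 8 and 9, against 400 and 223 in libraries 3 and 4, and 9.84, 11.8, 3.26, 5.59 and 3.07 in libraries 1, 2, 5, 6 and 7. These values rest on 186 and 154 reads in libraries 8 and 9, on 339 and 195 reads in libraries 3 and 4, and on 2 to 6 reads in the other 5. The sets did not overlap: libraries 8 and 9 lay above all of libraries 1, 2, 5, 6 and 7 and below both libraries 3 and 4. Library 8 was 16.6 times library 2, the highest of the 5 (95% exact interval 7.47 to 45.7), and library 9 was 9.47 times it (4.25 to 26.2). Intervals here and below are exact conditional binomial intervals that cover counting error only, because reads without molecular identifiers are not independent molecules. Library 8 held 87.4% of the level of library 4 (71.1 to 107), a difference within counting error, and library 9 held 49.996% of it (40.2 to 62.1). The place of library 8 below library 4 turned on the scaling, with a ratio of 0.711 (0.579 to 0.874) after scaling to the table total and of 1.10 (0.892 to 1.35) under median-of-ratios size factors. Against library 3 the shares were 48.8% in library 8 and 27.9% in library 9. None of the 10 pairs among libraries 1, 2, 5, 6 and 7 differed beyond counting error, so at this depth no order among these 5 was detectable. In bulk libraries fewer cells of a type and less RNA per cell cannot be told apart, here and for every gene below.

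**Figure D1:**
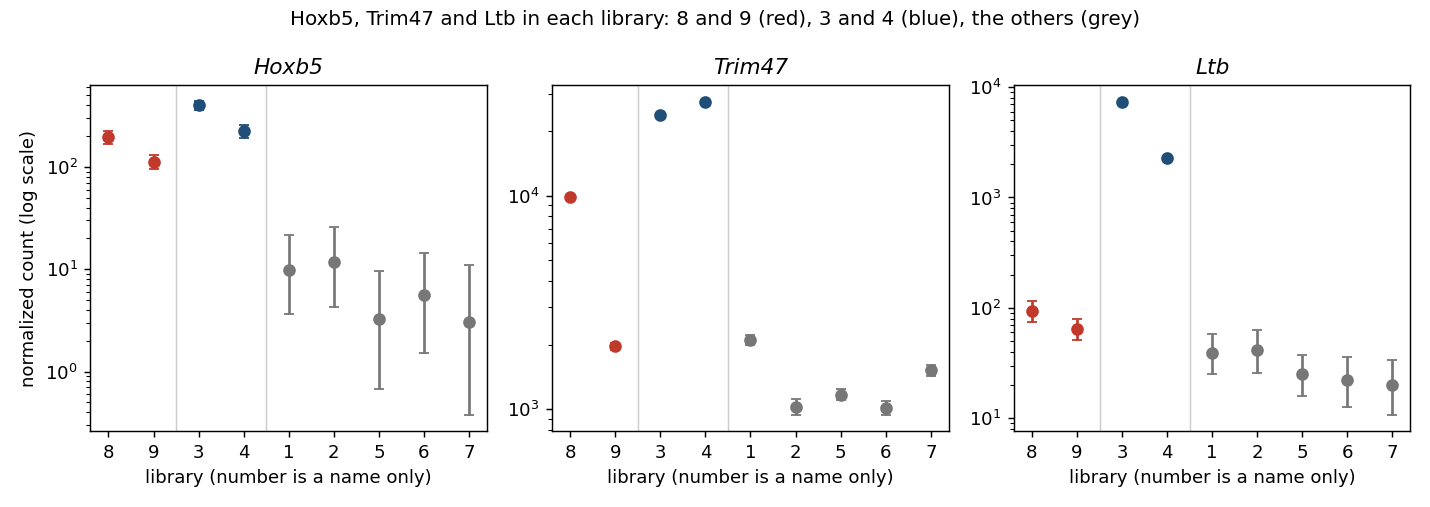
Normalized counts (log scale) of Hoxb5, Trim47 and Ltb in each of 9 libraries, with libraries 8 and 9 in red, 3 and 4 in blue and the other 5 in grey; bars are exact 95% Poisson intervals. Hoxb5 in libraries 8 and 9 (195 and 112) lay near library 4 (223), a place that turned on the scaling for library 8, Trim47 was high in library 8 (9887) but not in library 9 (1969), and Ltb in both (93.3 and 64.5) lay near the grey libraries.

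Trim47 had 9887 and 1969 normalized counts in libraries 8 and 9, against 23789 and 27479 in libraries 3 and 4, and 2113, 1021, 1171, 1014 and 1521 in libraries 1, 2, 5, 6 and 7. Only library 8 of the pair stood between the sets, since library 9 lay inside the range of the 5 other libraries. With 520 reads or more in every library, counting error was small for this gene. Library 8 was 4.68 times library 1 (4.41 to 4.96) and held 41.6% of the level of library 3 (40.6 to 42.6). Library 9 was 0.932 times library 1 (0.872 to 0.996), or 0.974 (0.911 to 1.04) after scaling to the table total, and held 8.28% of the level of library 3 (7.95 to 8.61). Without library 1 the place of library 9 turned round, since it was 1.29 to 1.94 times each of libraries 2, 5, 6 and 7. The label of a gene graded over both libraries therefore held for Trim47 in library 8 and not in library 9. Library 8 exceeded library 9 by 5.02-fold (4.81 to 5.24), while library 3 was 0.866 times library 4. The other libraries also differed among themselves, beyond counting error in 9 of 10 pairs, with library 1 being 2.08 times library 6 (1.90 to 2.29).

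Ltb had 93.3 and 64.5 normalized counts in libraries 8 and 9, against 7334 and 2266 in libraries 3 and 4, and 39.4, 41.2, 25.0, 22.4 and 20.0 in libraries 1, 2, 5, 6 and 7. Libraries 8 and 9 rested on 89 reads each and the other 5 on 13 to 24. The pair lay above all 5, but close to them and far below libraries 3 and 4. Library 8 was 2.26 times library 2 (1.39 to 3.84), and library 9 was 1.56 times it (0.964 to 2.65), a difference within counting error. After scaling to the table total the highest of the 5 was library 1, and library 9 was 1.71 times it (1.08 to 2.81). Library 8 held 4.12% of the level of library 4 (3.29 to 5.09) and library 9 held 2.84% (2.27 to 3.52). Libraries 3 and 4 differed between themselves by 3.24-fold (3.08 to 3.41), so against library 3 the shares were 1.27% and 0.879%. Library 8 exceeded library 9 by 1.45-fold (1.07 to 1.96), and 0 of the 10 pairs among libraries 1, 2, 5, 6 and 7 differed beyond counting error.

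Ordered from the highest level in the deposited scaling, the 3 genes shared libraries 3 and 4 as the first pair. For Hoxb5 the order was library 3, 4, 8 and 9, with neighbours 4 and 8 not apart beyond counting error. For Trim47 it was library 4, 3, 8, 1 and 9, with every neighbouring pair of these apart, the last by 1.07-fold (1.004 to 1.15). For Ltb it was library 3, 4, 8 and 9 and then library 2, with neighbours 9 and 2 not apart. Other scalings moved whole libraries relative to the middle one of the 9. Scaling to the table total moved libraries 3 and 4 by 0.65 and 0.50 on the log2 scale and the others by -0.55 to 0.20, and median-of-ratios size factors moved libraries 3 and 4 by -0.60 and -0.33 and the others by -0.02 to 0.10.

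Genes placed as Hoxb5 and Ltb were, with libraries 8 and 9 both above libraries 1, 2, 5, 6 and 7 and both below libraries 3 and 4, are called graded here. They numbered 409 of 2341, or 17.5%. The choice of the 3 genes used this order, so nothing is read from their own count of 2 of 3. When each of the 14 differences had to exceed counting error, 144 genes (6.15%) were graded and none of the 3 was among them. Trim47 shared its order, library 8 alone between the sets, with 11.4% of genes, and 3.12% had library 9 alone there. Libraries 3 and 4 were above the 5 others for 51.9% of genes, library 8 was above library 9 for 49.6%, and 15.1% had the reverse order, with libraries 8 and 9 both below the 5 others and both above libraries 3 and 4. The graded count was 701 without library 9 and 381 to 512 without each other library in turn.

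By their share in library 8, Hoxb5 stood high and Ltb low among the graded genes. Among the 409 the median share of the lower of libraries 3 and 4 was 40.3% in library 8 and 30.0% in library 9. Hoxb5, at 87.4% in library 8, was reached or exceeded by 15 of them, itself included, a share that turned on the scaling, and at 49.996% in library 9 by 109. Ltb, at 4.12% in library 8 and 2.84% in library 9, was reached or exceeded by 403 and 397. The lower of libraries 8 and 9 was 9.47 times the highest of the 5 others for Hoxb5, against a median of 1.35 over the graded genes, and 12 graded genes, Hoxb5 included, had as large a ratio, of which 10 were at 0 in all 5. For Ltb this ratio was 1.56, also above the median, and 148 graded genes reached it.

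**Figure D2:**
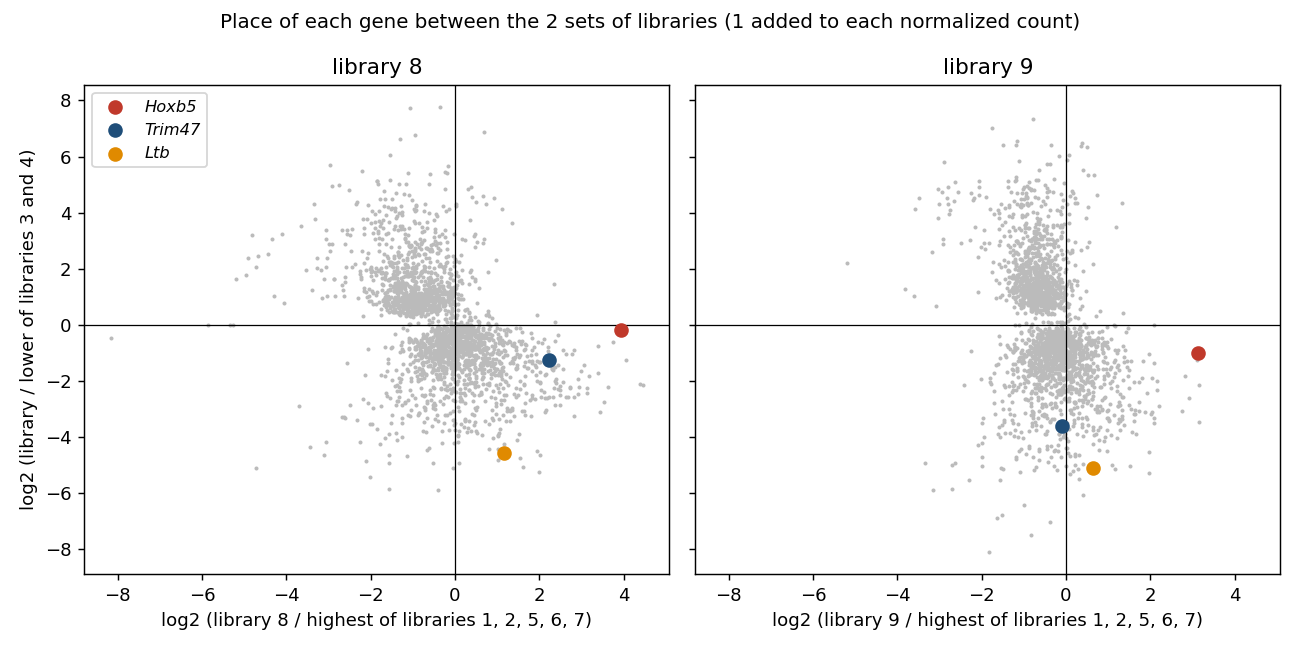
Each point is 1 of 2341 genes; the x axis is the log2 ratio of library 8 (left panel) or 9 (right panel) over the highest of libraries 1, 2, 5, 6 and 7, and the y axis the log2 ratio over the lower of libraries 3 and 4, with 1 added to each normalized count. Graded genes fill the lower right field of both panels, where Hoxb5 sits far right and just below the line, a side that turned on the scaling in library 8, Ltb sits low, and Trim47 leaves that field in library 9.

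Among graded genes with at least 50 normalized counts in both libraries 8 and 9, Hoxb5 had the largest ratio over the highest of the 5 others. Next came Ndn, an imprinted growth suppressor, with 804 and 718 normalized counts in libraries 8 and 9, against 2994 and 2546 in libraries 3 and 4, and 33.7 to 100.1 in the 5 others (7.17-fold). Tgm2, a transglutaminase, had 1859 and 1014, against 8582 and 11551 and then 86.7 to 149 (6.80-fold). Clec1a, a C-type lectin receptor, followed with 4.52-fold, Art4, which carries the Dombrock blood group, with 4.50-fold and Pglyrp2, a peptidoglycan amidase, with 4.33-fold. Bex1 (4.31-fold), the lactate dehydrogenase subunit gene Ldhb (4.12-fold) and the transcription factor genes Gata3 (3.85-fold) and Tox (3.81-fold) closed the first 10. Their share of the lower of libraries 3 and 4 was 17.6% to 58.6% in library 8, below the 87.4% of Hoxb5.

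The genes most like each of the 3 were ranked by Pearson correlation of log2 values with 1 added. The names depend on this measure, since Spearman correlation over 9 libraries gave 0 of the same 5 genes for each of the 3. The points share the scaling of their library, and over all 9 libraries the correlation rests largely on the widest gap in the levels. For Hoxb5 this gap lay between libraries 3, 4, 8 and 9 and the 5 others. For Trim47 it lay between libraries 3, 4 and 8 and the rest, and for Ltb between libraries 3 and 4 and the rest. Hoxb5 was most like Nap1l3, a nucleosome assembly protein gene (r = 0.994, n = 9), Uba7, which activates the ubiquitin-like protein ISG15 (0.988), Art4 (0.986), Ndn (0.985) and Clec1a (0.982). Nap1l3 had 64.0 and 58.7 normalized counts in libraries 8 and 9, against 87.3 and 69.8 in libraries 3 and 4, and 12.0 to 21.3 in the 5 others. Over the 7 libraries with Ly6a under 1000, Nap1l3 (0.989), Ndn (0.986) and Art4 (0.982) were again among its first 5, with Osbpl9, an oxysterol-binding protein gene (0.988), and Mapre3, which binds microtubule ends (0.984).

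Trim47 was most like the claudin gene Cldn25 (r = 0.993, n = 9), Insl3, an insulin-like peptide gene (0.993), the small GTPase gene Rab2b (0.987), Sirt3, a mitochondrial deacetylase gene (0.985), and Jam2, a junction protein gene (0.985). Insl3 had 106 and 38.4 normalized counts in libraries 8 and 9, against 278 and 269 in libraries 3 and 4, and 15.2 to 32.8 in the 5 others. Over 7 libraries Rab37 (0.992), Afap1l1 (0.987), Cldn25 (0.983), Lpar6 (0.975) and Insl3 (0.974) led. These values of r rest largely on library 8, where Trim47 had 9887 normalized counts against 1014 to 2113 in the rest of the 7. Rab37 followed Trim47 over these 7, with 3503 to 3941 in libraries 1, 2, 5, 6 and 7. Yet it had 5450 and 3861 normalized counts in libraries 8 and 9, against 2314 and 1850 in libraries 3 and 4.

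Ltb was most like the ubiquitin-conjugating enzyme gene Ube2h (r = 0.996, n = 9), Ppp1r9b, which encodes spinophilin (0.993), Mettl7a1 (0.993), the HSC transcription factor gene Hlf (0.993) and Myof (0.993). Mettl7a1 had 120 and 56.5 normalized counts in libraries 8 and 9, against 5534 and 2278 in libraries 3 and 4, and 38.4 to 53.0 in the 5 others. Over 7 libraries none of these was among its first 5, which were Kiz (0.991), Mpzl1 (0.989), Plscr4 (0.986), Cep19 (0.986) and Snurf (0.985). Among the 3 genes themselves, r was 0.874 for Hoxb5 and Trim47, 0.828 for Hoxb5 and Ltb and 0.915 for Trim47 and Ltb over 9 libraries. These were no close pairs, since Trim47 came in place 302 and Ltb in place 501 of 2340 genes for Hoxb5, and Ltb in place 299 for Trim47. Over 7 libraries r was 0.778, 0.961 and 0.783, at places 375, 25 and 250 of 2339.

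Of 10 measured Hox genes and cofactors 6 were graded, or 5 of 9 without the selected Hoxb5, beside 17.5% of all genes. Of these, 2 were graded beyond counting error, beside 6.15%. In the Hoxb cluster, Hoxb2 had 49.3 and 41.3 normalized counts in libraries 8 and 9, against 130 and 85.8 in libraries 3 and 4, and 0 to 9.84 in the 5 others. Hoxb6, the upstream neighbour of Hoxb5 (96292476 to 96301569), had 8.39 and 3.62, against 109 and 87.0 and then 0 to 1.96. Hoxb8 had 5.24 and 0.72, against 36.6 and 64.1, and was at 0 in the 5 others. As shares of the lower of libraries 3 and 4, library 8 thus held 87.4% for Hoxb5 (71.1 to 107), 57.4% for Hoxb2 (39.0 to 83.8), 14.3% for Hoxb8 and 9.65% for Hoxb6 (4.02 to 20.0). The intervals of Hoxb5 and Hoxb2 overlap, while that of Hoxb6 lies below both. Hoxb6 rested on only 8 and 5 reads in libraries 8 and 9, and Hoxb8 on 5 and 1. Neither of these exceeded the highest of the 5 others beyond counting error. Hoxa10 had 151 and 180, against 465 and 340 and then 32.2 to 67.6, and Pbx3, a Hox cofactor gene, had 77.6 and 59.4, against 157 and 124 and then 9.79 to 37.3. Hoxa7 had library 8 alone between the sets, with 65.0 and 42.0 in libraries 8 and 9, against 290 and 235 in libraries 3 and 4.

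Of 14 TRIM family genes 3 were graded, or 21.4%, close to the 17.5% of all genes, and none beyond counting error. Library 8 alone stood between the sets for 6, the selected Trim47 among them, beside 11.4% of all genes. The graded ones were Trim26 (108 and 110 in libraries 8 and 9, 439 and 316 in libraries 3 and 4, up to 106 in the others), Trim30b and Trim46. Trim46 had 34.6 and 13.0, against 103 and 146 and then 4.61 to 9.84. Libraries 3 and 4 were above the 5 others for 12 of the 14 under all 3 scalings, beside 51.9% of all genes. Trim35 was an exception, with 1656 and 1448 in libraries 8 and 9, against 731 and 1191 in libraries 3 and 4. The graded TRIM count was 9 without library 9 and 7 without library 1, beside 701 and 508 of all 2341 genes. Without library 9 the order asks only about library 8, so Trim47 enters by that rule.

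Ltb was 1 of 7 measured genes of the TNF and TNF receptor superfamilies, of which 4 were graded, 2 beyond counting error, beside 17.5% and 6.15% of all genes. Without Ltb, which was selected on this order, 3 of 6 were graded. The TNF receptor genes Tnfrsf1a (618 and 433 normalized counts in libraries 8 and 9, 2317 and 2157 in libraries 3 and 4, 142 to 304 in the others) and Tnfrsf1b (217 and 143, 684 and 463, 68.7 to 92.1) kept 28.6% and 46.8% of the lower of libraries 3 and 4 in library 8, against 4.12% for Ltb. Tnfrsf26 was graded on few reads, with 24.1 and 25.4 in libraries 8 and 9, and Cd27 and Tnfrsf18 were highest in libraries 3 and 4 with library 9 among the 5 others. Of 28 listed genes of the lymphotoxin and non-canonical NF-kB pathway 7 were measured and 4 graded, 1 beyond counting error, beside the same 17.5% and 6.15%, and without Ltb 3 of 6 were graded. Besides Ltb these were Map3k14, which encodes the kinase NIK (15.7 and 15.2, against 82.6 and 46.9 and then 2.80 to 9.84), the adhesion molecule gene Icam1 (300 and 205, against 1318 and 888 and then 26.1 to 109.9) and Bcl3, an NF-kB cofactor gene (269 and 73.9, against 682 and 1277 and then 11.2 to 65.6). Of these 4, Icam1 was the 1 graded beyond counting error. Map3k14 rested on 15 and 21 reads in libraries 8 and 9 and lay within counting error of library 1 in both. Bcl3 in library 9 also lay within counting error of library 1. Birc2 and Birc3, inhibitors of apoptosis that act in this pathway, were not graded. Birc2 had 38.8 and 50.7 in libraries 8 and 9, against 111 and 61.8 in libraries 3 and 4, and Birc3 had 69.2 and 49.3, against 143 and 75.5.

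**Figure D3:**
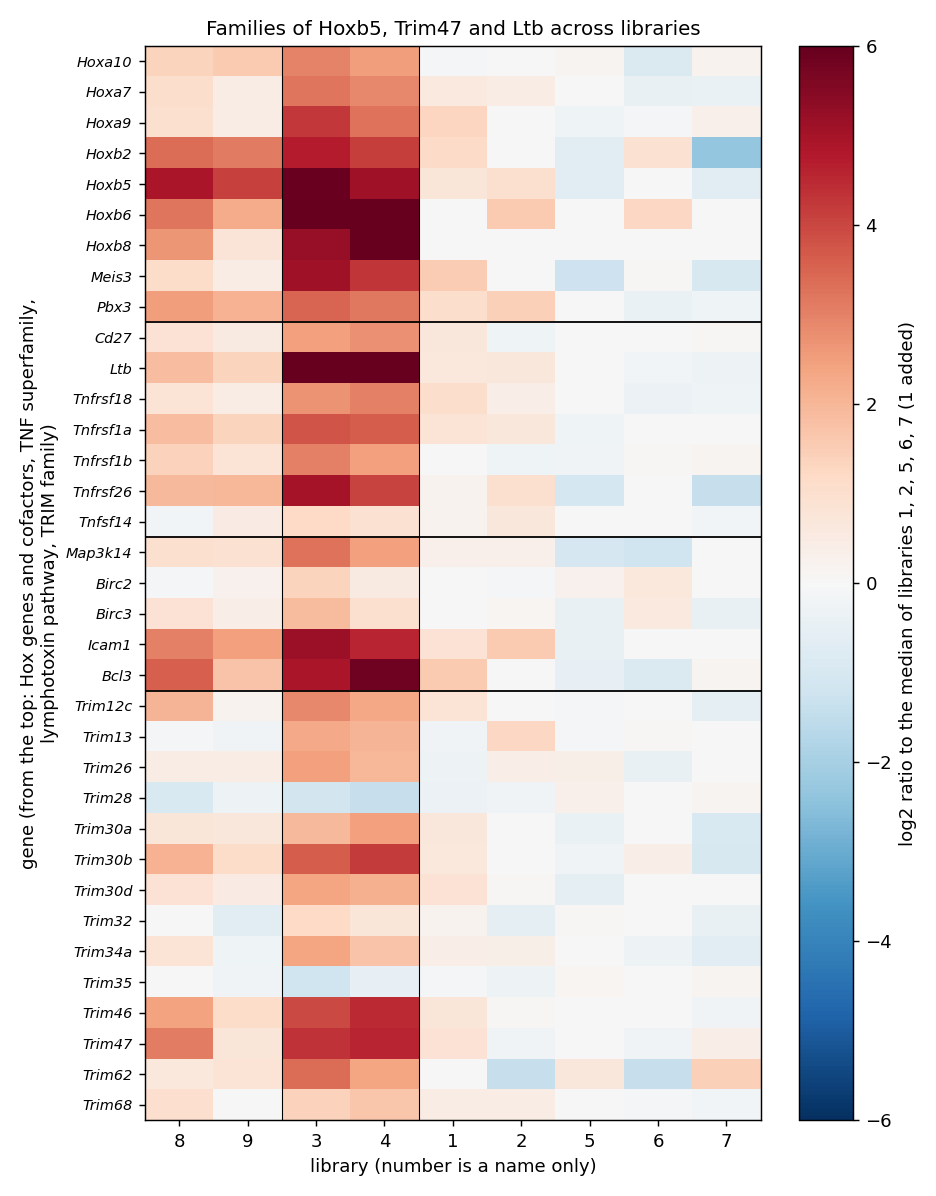
Colours give the log2 ratio of each gene to the median of libraries 1, 2, 5, 6 and 7, with 1 added to each normalized count and the scale ending at 6, for measured genes among the Hox genes and cofactors, TNF superfamily, lymphotoxin pathway and TRIM family. Libraries 3 and 4 are red for most genes, and among libraries 8 and 9 Hoxb5 is the deepest red, while Trim47 is deeper red in library 8 (9887) than in library 9 (1969), where it is pale.

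Set among 25 other measured genes of a list of 56 HSC genes, Hoxb5 lay near the top, Trim47 in the upper part in library 8 and Ltb near the bottom. Of the 25, 16 were graded, beside 17.5% of all genes, and 23 had libraries 3 and 4 above the 5 others, beside 51.9%. Ly6a, on which the libraries were split, is among the 25 and is among the 23 by that split alone. It was not graded. For the 25, Ly6a included, the median share of the lower of libraries 3 and 4 was 31.1% in library 8 and 14.7% in library 9. This stood beside 44.4% and 36.2% over the 1216 genes with libraries 3 and 4 above the 5 others, and 81.8% and 72.8% over all 2341 genes. The level in library 8 exceeded that in library 9 for 20 of the 25, beside 49.6% of all genes. Tie1, a receptor tyrosine kinase gene, resembled Hoxb5 in this share alone, with 88.1% in library 8 and 48.2% in library 9. Libraries 8 and 9 were 2.26 and 1.24 times the highest of the 5 others for Tie1, against 16.6 and 9.47 times for Hoxb5. The stem cell factor receptor gene Kit (71.0% and 24.1%) and Cish, an inhibitor of cytokine signalling (72.9% and 21.8%), had a gap between libraries 8 and 9 as Trim47 did (41.6% and 8.28%). Shares below those of Ltb (4.12% and 2.84%) were found for Procr, the endothelial protein C receptor gene (2.93% and 0.522%), with counting intervals that overlap in library 8 (2.36 to 3.60 for Procr). Ly6a, the gene used to split the libraries, was below Ltb in library 8 (1.68%) and above it in library 9 (4.39%). Hlf (9.24% and 9.75%) and Emcn (6.41% and 9.19%) were also under 10% in both. Ndn (31.6% and 28.2%), Mllt3 (17.4% and 10.7%), Cdkn1c (16.0% and 12.4%), Prdm16 (25.8% and 13.5%) and Fstl1 (28.4% and 26.2%) lay between, as did, on few reads, Gprc5c (49.98% and 8.62%). Gfi1b, a transcription factor gene shared with megakaryocytes, had the opposite order, with 2956 and 4500 in libraries 8 and 9, against 1157 and 1264 in libraries 3 and 4.

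**Figure D4:**
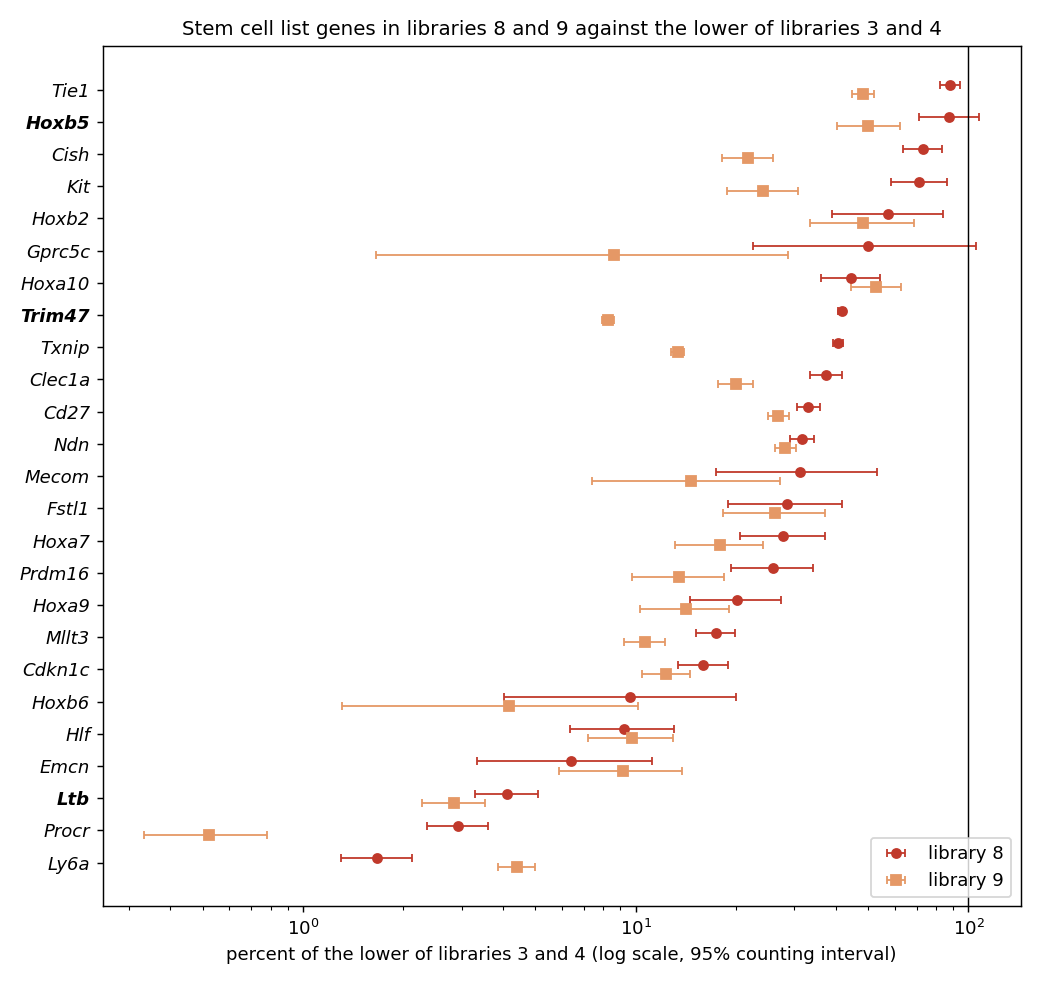
For measured HSC list genes with libraries 3 and 4 above the 5 others, the level in library 8 (circles) and library 9 (squares) as a percent of the lower of libraries 3 and 4, on a log axis, with exact 95% counting intervals and the 3 selected genes in bold. Hoxb5 is near the top (87.4% and 49.996%), a rank whose distance from 100% turned on the scaling in library 8, Trim47 in the upper part in library 8 with a wide gap to library 9 (41.6% and 8.28%), and Ltb near the bottom (4.12% and 2.84%).

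Markers of other cell types were read across the same split of libraries, and some members of a list went against its sum. Of 29 listed megakaryocyte markers 18 were measured. None was graded, beside 17.5% of all genes, and 8 were in the reverse order, beside 15.1%. In the deposited scaling their summed level was 201334 and 167367 in libraries 8 and 9, 23376 and 32859 in libraries 3 and 4, and 254573 to 325620 in the 5 others. The place of library 8 turned on the scaling. After scaling to the table total the sum was 192487 in library 8, within the 177647 to 224144 of the 5 others, and 145603 in library 9. Itga2b, which encodes CD41, had 68308 and 45798 in libraries 8 and 9, against 1616 and 6543 in libraries 3 and 4, and Pf4, platelet factor 4, had 19643 and 17894, against 899 and 1412. In the deposited scaling, Itga2b in library 8 lay within its range over the 5 other libraries (60607 to 77883), while Pf4 lay below its own (26211 to 39766). The summed level of 5 erythroid markers of 19, led by Gata1 and Aqp1, was 12700 and 11109, against 328 and 474 and then 12977 to 15560. After scaling to the table total it was 12142 in library 8, above the 8349 to 10803 of the 5 others, and 9664 in library 9, within them. The lower members of this list were placed otherwise, with Rhd at 3.15 and 98.5 in libraries 8 and 9, against 4.72 and 9.15 in libraries 3 and 4, and 212 to 1187 in the 5 others. Ermap had 10.5 and 50.7, against 2.36 and 5.72 and then 118 to 352, and Add2 had 2.10 and 15.9, against 3.54 and 0 and then 36.1 to 113, so in library 8 these 3, named after their values were seen, lay nearer to libraries 3 and 4. For 5 T and NK cell markers of 27, led by Nkg7 and Lat, it was 8878 and 12518, against 2094 and 2682 and then 22001 to 34023, a sum set by these 2 genes. Libraries 3 and 4 were above the 5 others for 2 of the 5, beside 51.9% of all genes. These were Klrb1c, which was graded, and Lck, named after its values were seen, with 14.7 and 26.8, against 44.8 and 43.5 and then 6.99 to 17.7. For 4 endothelial markers of 20 (Tie1, Emcn, Egfl7 and Cldn5) it was 2659 and 1741, against 8748 and 8043 and then 1293 to 1593. Tie1 and Emcn are also on the HSC list, and Tie1 alone had 1676 and 918 in libraries 8 and 9. For 4 granulocyte and monocyte markers of 18 the summed level was 2142 and 1982, against 12916 and 12329 and then 366 to 1547, set mostly by Prtn3. Prtn3 (2006 and 1767, against 12248 and 11466 and then 313 to 1356) and Csf3r were graded, or 2 of the 4, beside 17.5% of all genes. Cebpa and Csf1r went the other way. Csf1r had 15.7 and 82.6, against 0 and 1.14 and then 3.07 to 64.8. Cebpa had 4.19 and 13.0, against 0 and 0 and then 1.64 to 41.2. Vpreb1, the 1 measured B cell marker of 17, did not exceed 12.3 normalized counts. None of these measured markers was at 0 in library 8 or 9, and their part in the levels of Hoxb5, Trim47 and Ltb was not tested.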

How the data were processed

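The authors deposited 1 table of normalized counts, treated here as a signal scaled per library, for 2402 genes in 9 rows without sample names. The submitters' processing notes name Bowtie2, STAR, DESeq and the build mm10, without roles or versions, and the labels' protocols name a NEBNext Ultra kit. For counting, strand use, annotation, scaling and gene choice the method is not given in the sources used here.

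Low values of each row were whole multiples of 1 step. Dividing by it gave whole reads within 0.1 for 100% of values, with 1790670 to 4373460 reads per library on these genes. The limit that a count of 0 allows was set at 3 reads, which is 2.17 to 5.89 normalized counts by library. Ratios carry exact conditional binomial 95% intervals and single values exact Poisson intervals. Genes with at least 10 in at least 2 libraries (2341) entered counts. The steps were tested on simulated data. Python 3.11.15, numpy 2.4.6, pandas 2.3.3, scipy 1.17.1 and matplotlib 3.10.9 were used. No table column beyond those mapped was used.

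The 3 genes, gene lists and alternatives were chosen with earlier results of these data known. Named were the 3 genes, Ly6a, Procr, Kit, Itga2b and Pf4, the 5 genes most correlated with each of the 3 over 9 and over 7 libraries, the 10 graded genes with the largest ratio and at least 50 normalized counts in libraries 8 and 9, and from each list the graded genes and the 2 others of highest median, without unnamed or predicted genes. A few genes so chosen count in their lists and are not reported here by name. Comparisons between the labelled groups were not made, since rows could not be matched to samples.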

Additional observations from a re-analysis of the deposited data

How the results depend on the processing

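Of 157 values computed under other settings, 123 were labelled the same, 33 moved and 1 reversed. The label of the same does not mean a small change. It covers the graded count going from 409 to 611, and the Hoxb5 ratio of library 8 to library 4 going from 0.874 to 0.711, both after scaling to the table total. The graded count of 409 became 70 with a 2-fold gap on both sides, 144 with every difference beyond counting error (added after seeing the data), 611 after scaling to the table total, 338 under median-of-ratios size factors, and 381 to 701 leaving out each library. As ratios to the lower of libraries 3 and 4, Hoxb5 in library 8 (0.874) was 1.10 under median-of-ratios and 0.488 to 0.874 leaving out each library, and in library 9 (0.5) was 0.370 by table total and 0.279 to 0.5. Trim47 in library 8 (0.416) was 0.305 by table total, 0.631 under median-of-ratios and 0.360 to 0.416 leaving out each, and in library 9 (0.0828) was 0.0552, 0.124 and 0.0716 to 0.0828. Ltb in library 8 (0.0412) was 0.0517 under median-of-ratios and 0.0127 to 0.0412 leaving out each, and in library 9 (0.0284) was 0.0211, 0.0352 and 0.00879 to 0.0284. The low ends of Hoxb5 and Ltb come without library 4 and those of Trim47 without library 3. Over the highest of the 5 others, Trim47 in library 8 (4.68) was 5.37 by table total and 4.68 to 6.50 leaving out each, and in library 9 it was 0.932 to 1.29, and 1.29 came without library 1. With differences beyond counting error 9 HSC, 2 Hox, 0 TRIM, 2 TNF and 1 lymphotoxin list genes were graded, and the TRIM count ran from 3 to 9 leaving out each library. Of the 5 genes most like each, Spearman correlation shared 0 for Hoxb5, Trim47 and Ltb, and the 7 libraries with Ly6a under 1000 shared 3, 2 and 0. No paired analysis was possible because the rows carry no sample name or replicate number. Reads on these genes, 2 to 6 for Hoxb5 and 13 to 24 for Ltb in libraries 1, 2, 5, 6 and 7, limit what can be ordered there.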
